A study of Mus musculus with 8 samples.

Results

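Chemokines are small secreted proteins that draw white blood cells along a gradient, and they act through receptors that couple to inhibitory G proteins. Their families are named for the spacing of the first cysteines in the ligand: CC ligands (Ccl) act mainly on CC receptors (Ccr), and CXC ligands (Cxcl) on CXC receptors (Cxcr). In prostate tumors they are known as signals between the cancer cells and the macrophages, neutrophils and lymphocytes around them. The genes described here were all those whose listed symbol was Ccl, Cxcl, Ccr or Cxcr followed by a number, which gave 55 of the 38115 genes in the count tables. They comprised 25 CC ligand entries, 13 CXC ligands, 10 CC receptors and 7 CXC receptors. Chemokine genes with other symbols, such as Pf4, Ppbp, Cx3cl1 and Xcl1, fell outside this naming. Cxcr7 is the older symbol of the atypical receptor Ackr3. Ccl25 was listed under 2 Ensembl identifiers, each counted as an entry.

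RNA was sequenced from 8 tumors of the mouse prostate cancer line Myc-CaP, a line from a mouse carrying a MYC transgene driven by the prostate-specific probasin promoter, so all tumors share that transgene. Androgen sensitive (Myc-CaP/AS) or castrate resistant (Myc-CaP/CR) cells were placed in the anterior prostate of FVB males that were intact or had been castrated by surgery, and which tumors grew in castrated males is not given per tumor. Each of 4 groups held 2 tumors: primary AS, metastatic AS, primary CR and metastatic CR, called AS1, AS2, CR1 and CR2 within each tumor type, where the numbers carry no pairing. The labels call the metastases matched, without saying which primary tumor each one matches. A matched metastasis may share a mouse with a primary tumor, and the tests treat all 8 tumors as independent. Where tumors share a mouse, the 4 tumors of a phenotype stand for fewer than 4 mice. Age, metastatic site and whether the tumors of a group came from separate mice are not stated, so p-values measure the spread between these samples. Each phenotype rests on a single cell line, and the FVB hosts share the strain of the line and keep an immune system. Total counts ran from 20905806 to 91886163 per tumor, and 3 of the 4 CR tumors had fewer counts than any AS tumor. Levels are given as CPM, the raw count per 1000000 reads of a library size that was scaled with TMM factors (a trimmed mean of the log ratios between libraries). Among markers of the labelled tissue, Foxa1 was at 49.0 CPM or more and Krt8 at 36.8 CPM or more in every tumor, while Epcam, Cdh1, Krt18 and Pbsn were below 1 CPM.

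Sequences upstream of the genes are shown first, because Cxcl15, Ccl8 and Ccr3, which differed between phenotypes, sit in rows of related genes, while Cxcl13, which also differed, has no other member near it. The 250 bases before the start site are given for Cxcl15, Cxcl13, Ccl8 and Ccr3, which differed. They are also given for Cxcl1 and Cxcl2, tested members of the row of Cxcl15. Cxcl12, which also differed, and Cxcl3, the member nearest to Cxcl15, are not shown. Ccl4 also differed and sits in a row of related genes, but no promoter entry was found for it. The stretches were taken from RefSeq (build GRCm38.p6, plus strand, 5′ to 3′), and capitals mark matches to an NF-kappaB site or an AP-1 site (TGANTCA).
Cxcl15: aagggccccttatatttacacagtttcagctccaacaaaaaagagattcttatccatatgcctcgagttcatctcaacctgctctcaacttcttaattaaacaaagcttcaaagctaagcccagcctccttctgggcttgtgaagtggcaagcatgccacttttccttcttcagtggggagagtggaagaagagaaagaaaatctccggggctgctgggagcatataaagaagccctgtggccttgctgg
Cxcl13: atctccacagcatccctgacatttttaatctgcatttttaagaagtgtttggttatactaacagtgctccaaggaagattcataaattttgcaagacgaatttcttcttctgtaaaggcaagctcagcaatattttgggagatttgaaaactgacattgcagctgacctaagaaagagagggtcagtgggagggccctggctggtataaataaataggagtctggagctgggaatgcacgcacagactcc
Ccl8: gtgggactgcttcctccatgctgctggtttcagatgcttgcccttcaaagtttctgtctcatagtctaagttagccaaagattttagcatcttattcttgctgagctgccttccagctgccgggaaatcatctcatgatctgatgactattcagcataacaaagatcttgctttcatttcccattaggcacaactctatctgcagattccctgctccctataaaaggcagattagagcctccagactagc
Ccr3: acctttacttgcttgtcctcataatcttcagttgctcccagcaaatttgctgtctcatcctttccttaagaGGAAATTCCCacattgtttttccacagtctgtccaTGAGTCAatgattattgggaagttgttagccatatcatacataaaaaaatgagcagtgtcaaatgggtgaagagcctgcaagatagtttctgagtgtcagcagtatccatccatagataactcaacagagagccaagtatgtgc
Cxcl1: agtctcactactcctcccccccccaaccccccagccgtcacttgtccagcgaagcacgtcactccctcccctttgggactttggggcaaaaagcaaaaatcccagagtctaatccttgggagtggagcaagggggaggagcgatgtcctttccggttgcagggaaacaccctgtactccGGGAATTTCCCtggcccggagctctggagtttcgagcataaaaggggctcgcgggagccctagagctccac
Cxcl2: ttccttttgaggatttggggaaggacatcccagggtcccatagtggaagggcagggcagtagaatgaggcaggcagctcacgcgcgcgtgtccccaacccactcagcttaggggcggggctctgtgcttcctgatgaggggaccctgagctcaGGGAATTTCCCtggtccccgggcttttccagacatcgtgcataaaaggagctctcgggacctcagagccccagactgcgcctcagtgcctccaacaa

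These stretches lie at chr5:90794284-90794533 for Cxcl15, chr5:95956689-95956938 for Cxcl13, chr11:82114935-82115184 for Ccl8 and chr9:124021721-124021970 for Ccr3. Those of Cxcl1 and Cxcl2 lie at chr5:90890995-90891244 and chr5:90903649-90903898. Both strands were searched for the NF-kappaB site, the AP-1 site, the interferon-stimulated response element (GAAA, any 2 bases, GAAA) and the gamma-activated site (TTCNNNGAA). The stretches before Cxcl15, Cxcl13 and Ccl8 held none of these motifs. Before Ccr3 there was 1 NF-kappaB match at 179 bases and 1 AP-1 match at 144 bases from the start. Cxcl1 and Cxcl2 each held 2 NF-kappaB matches, on opposite strands and 1 base apart, at 71 and 70 bases and at 97 and 96 bases. Of those not shown, Cxcl12 held none of these motifs, and Cxcl3 held 2 NF-kappaB matches, at 73 and 72 bases. Of 32851 mouse promoters of this length, 3.90% held the NF-kappaB site, 6.75% the AP-1 site, 2.98% the interferon-stimulated response element and 7.02% the gamma-activated site. A promoter entry was found for 37 members. A match describes letters in this window only.

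Most members were present at low levels, and a few carried most of the signal. Of the 55 members, 53 had at least 1 count in some tumor, 35 had a count in every tumor and 21 had at least 10 counts in every tumor. Ccl21c and Ccl26 were at 0 in every tumor. By edgeR's filter on low counts, 40 members could be tested between phenotypes and 39 between tumor types. Per kilobase of exon, the median level over the 8 tumors was at least 1 CPM for 16 members and at least 0.1 CPM for 34. The 15 members left out of the phenotype test were 10 ligands and 5 receptors, none with more than 16 counts in any tumor. They included the ligands of lymphocyte homing Ccl19 and Ccl21a with their receptor Ccr7, the pair Ccl20 and Ccr6, and Cxcr5, the receptor of Cxcl13. Ccr7 had 1 to 14 counts, Ccr6 0 to 6 and Cxcr5 0 to 5 per tumor.

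**Figure D1:**
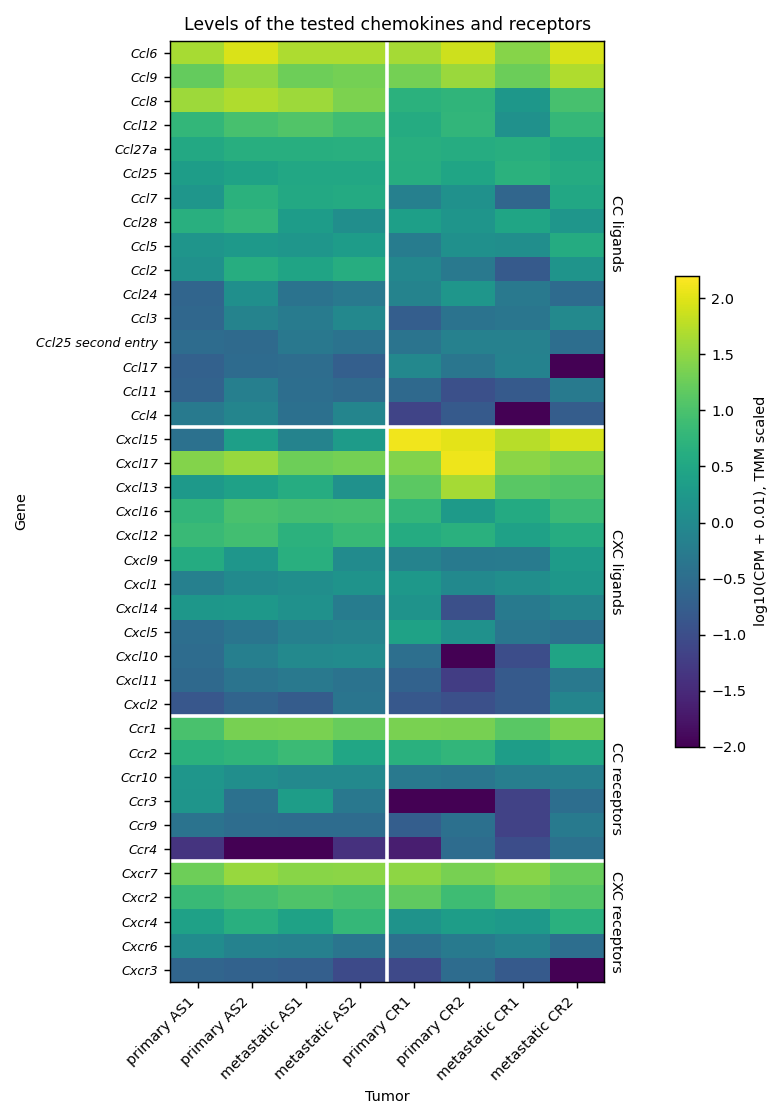
Levels of 39 of the 40 members that could be tested, as log10(CPM + 0.01), for each of the 8 tumors, grouped by ligand and receptor class and ordered by median CPM. Ccl6 and Cxcr7 are high in every column, and Cxcl15 is low in the 4 AS columns and high in the 4 CR columns.

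Over all 8 tumors, the highest median levels per kilobase among CC ligands were those of Ccl8 (32.1 CPM per kilobase), Ccl6 (26.6) and Ccl12 (11.4). Ccl8 led in AS tumors, at 74.6 CPM per kilobase beside 26.6 for Ccl6, and Ccl6 led in CR tumors, at 32.9 beside 10.2 for Ccl8. Ccl6 is a ligand of Ccr1 made by myeloid cells, and Ccl12 is a mouse ligand of Ccr2. Ccl6 stood at 44.9, 90.7, 48.1 and 47.3 CPM in primary AS1, primary AS2, metastatic AS1 and metastatic AS2, and at 42.8, 75.3, 26.9 and 87.5 CPM in primary CR1, primary CR2, metastatic CR1 and metastatic CR2. High and low tumors occurred in both phenotypes, and primary AS2 was the highest of all. Its log2 fold change of CR over AS was 0.03 (SE 0.38, adjusted p = 0.969 by edgeR's quasi-likelihood test). Among CXC ligands, Cxcl17 (34.2 CPM per kilobase), a mucosal chemokine, led Cxcl15 (13.5) and Cxcl13 (6.65) over all tumors. Within phenotypes, Cxcl15 was at a median of 0.651 CPM per kilobase in AS, the 7th of its class, and at 45.7 in CR, the first, while Cxcl17 was at 31.3 and 36.3. Among CC receptors, Ccr1 was at 7.64 CPM per kilobase, above every other receptor of its class, and Ccr2 at 0.701. The leading CXC receptors were Cxcr7 (8.42 CPM per kilobase), which takes up Cxcl12, then Cxcr2 (3.35), the receptor of the neutrophil attractants Cxcl1, Cxcl2 and Cxcl5, and Cxcr4 (1.42), the signalling receptor of Cxcl12.

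Ccr1, Cxcr7, Cxcr2 and Cxcr4 had counts in every tumor. Ccr1 ranged from 9.90 to 23.2 CPM and Cxcr7 from 16.7 to 35.6 CPM over the 8 tumors. Cxcr2 ranged from 7.11 to 15.2 CPM and Cxcr4 from 1.43 to 6.30 CPM. For all 4 receptors the ranges of AS and CR tumors overlapped. Cxcr1, the close relative of Cxcr2 and its neighbour on chromosome 1, had at most 4 counts.

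Metastatic and primary tumors were compared first, since the study asked which genes change with metastasis. No member passed the adjusted threshold of 0.05 (0 of 39, edgeR's quasi-likelihood test, Benjamini-Hochberg adjustment over 17104 genes), and the share called among all genes was also 0%. At an unadjusted p under 0.05 there was 1 member, Cxcl17, against 2.68% of all genes in either direction and 1.12% in its own (lower in metastases), and DESeq2 gave 0 members adjusted and 2 unadjusted. For no member did the 4 metastatic tumors lie wholly above or below the 4 primary tumors, compared with 0.789% of all genes wholly higher and 0.883% wholly lower. Fold changes were spread evenly, with 21 members above 0 and 18 below, and a median of 0.01 on the log2 scale beside -0.03 for all genes.

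Cxcl17 stood at 26.3, 36.1, 25.7 and 124 CPM in primary AS1, primary AS2, primary CR1 and primary CR2, and at 18.5, 21.3, 29.5 and 22.8 CPM in metastatic AS1, AS2, CR1 and CR2. Primary CR2 was far above the other tumors, and the remaining ranges overlapped. Its log2 fold change of metastatic over primary was -1.20 (SE 0.51, adjusted p = 0.997, edgeR), and -0.30 without primary CR2. Ccl24, an eotaxin that attracts eosinophils, and Ccl28, a mucosal ligand of Ccr10, were next among the lower members, with log2 fold changes of -1.16 (SE 0.56) and -0.85 (SE 0.45). Their adjusted p was 0.997 in edgeR.

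The members with the smallest p among those higher in metastases were inflammatory ligands. Cxcl2, which acts on Cxcr2, was at 0.129, 0.216, 0.135 and 0.0977 CPM in the primary tumors and at 0.154, 0.422, 0.146 and 0.810 CPM in the metastatic tumors, each in the order AS1, AS2, CR1, CR2. Cxcl10, an interferon-induced ligand of Cxcr3, was at 0.290, 0.648, 0.332 and 0 CPM in the primary tumors and at 0.924, 1.04, 0.0873 and 2.87 CPM in the metastatic tumors in the same order. Metastatic CR2 was the highest tumor for both genes, and the groups overlapped. The log2 fold changes were 1.33 (SE 0.63) for Cxcl2, 1.88 (SE 0.96) for Cxcl10 and 0.87 (SE 0.53) for Ccl3, a ligand of Ccr1, each with an adjusted p of 0.997 in edgeR. Without metastatic CR2, those of Cxcl2 and Cxcl10 were 0.73 and 1.06.

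Between phenotypes, 6 of the 40 tested members passed the threshold (15.0%), where 10.1% of the 18889 tested genes did. In CR tumors, Cxcl15 and Cxcl13 were higher (2 members, where 4.76% of genes were higher), and Ccl8, Ccl4, Cxcl12 and Ccr3 were lower (4 members, where 5.29% were lower). A gene enters the test when it is high enough in as few as 2 tumors. A member with few counts in a phenotype could enter only through the other phenotype, where it is high, so some difference was built in. Ccl4, at 0 to 5 counts in CR, and Ccr3, at 0 to 8, entered through their AS tumors. Ccr4, at 0 to 3 counts in AS, entered through its CR tumors. For these members the p-values are not independent of the filter. Cxcl15, Cxcl13, Ccl8 and Cxcl12 had at least 22 counts in every tumor. The 6 are described singly. Over all 40 members the median log2 fold change of CR over AS was -0.36, beside -0.0004 over all genes, with 15 members above 0 and 25 below. At an unadjusted p under 0.05 there were 13 members, 4 higher and 9 lower, against 27.1% of genes, 13% higher and 14.1% lower. In a bulk tumor, fewer cells of a type and less RNA per cell cannot be told apart.

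**Figure D2:**
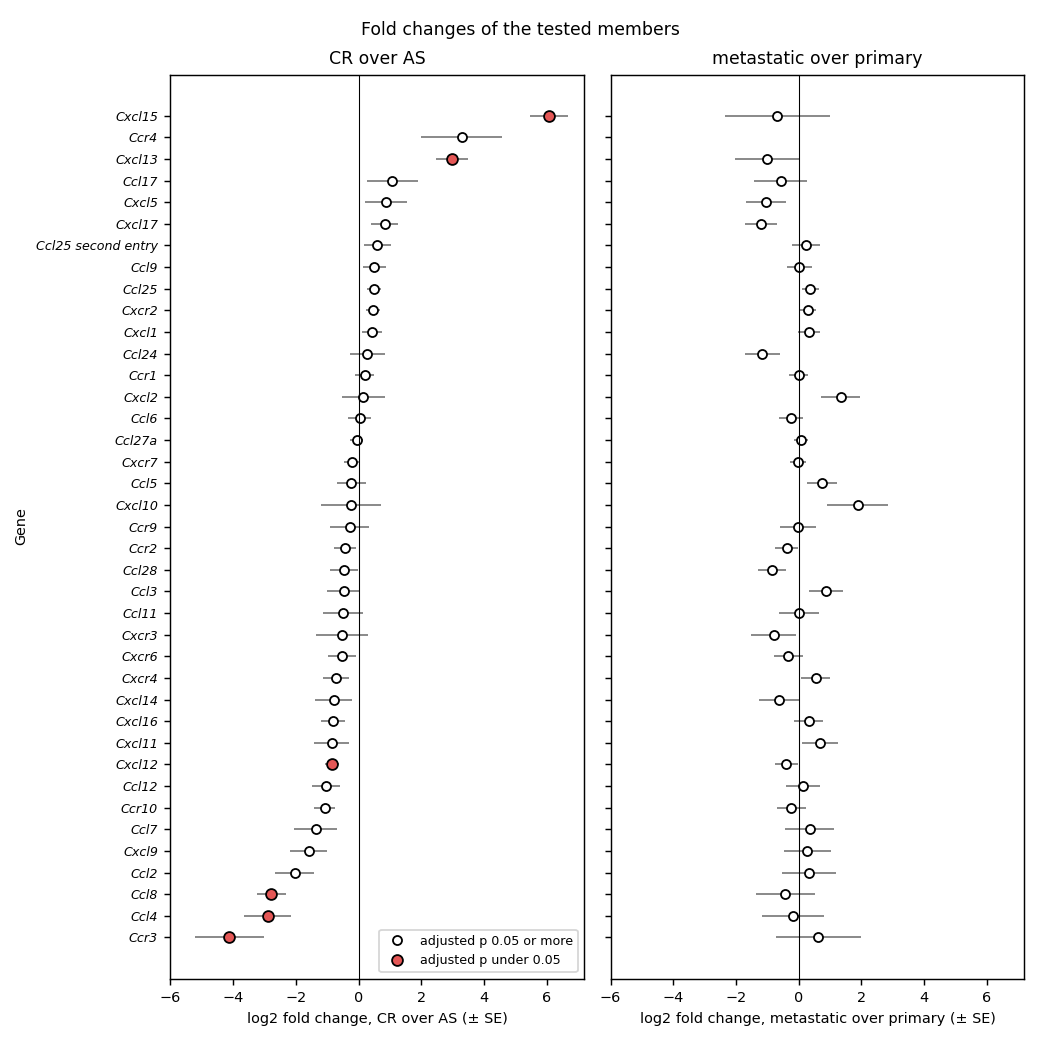
Log2 fold changes of the tested members with their standard errors, CR over AS on the left for 39 members and metastatic over primary on the right for 38, ordered by the left panel. Filled points, with an adjusted p under 0.05 in edgeR, are 6 on the left and 0 on the right.

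Cxcl15 showed the largest difference. This mouse ligand, also called lungkine, attracts neutrophils and is known from lung epithelium, and its gene lies at chr5:90794534-90803067 (GRCm38). It was at 0.355, 2.32, 0.757 and 2.01 CPM in primary AS1, primary AS2, metastatic AS1 and metastatic AS2, and at 129, 106, 55.1 and 88.0 CPM in primary CR1, primary CR2, metastatic CR1 and metastatic CR2. All CR tumors lay far above all AS tumors, on raw counts of 1892 to 10487 against 22 to 205. The mean rose from 1.36 ± 0.951 CPM (SD, n = 4) to 94.6 ± 31.2 CPM (SD, n = 4), a log2 fold change of 6.06 (SE 0.61, adjusted p = 0.0019, edgeR). By p it ranked 31st of 18889 genes, and among the 899 genes higher in CR its rise was the 11th largest. It made up 0.157% to 0.830% of all members' CPM in AS tumors and 21.8% to 36.4% in CR tumors. Primary tumors alone gave 6.45 (SE 0.89, adjusted p = 0.0403, edgeR) and metastatic tumors alone 5.68 (SE 0.86, adjusted p = 0.0465, edgeR). Lung markers were near 0 throughout: the summed level of the 6 genes Sftpc, Sftpb, Sftpa1, Scgb1a1, Ager and Cldn18 was 0.432 to 0.942 CPM in AS and 0.291 to 1.21 CPM in CR tumors.

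Cxcl13, which attracts B cells through Cxcr5, was the other member higher in CR tumors, and its gene lies at chr5:95956951-95961068. It was at 1.79, 2.55, 3.91 and 1.31 CPM in primary AS1, primary AS2, metastatic AS1 and metastatic AS2, and at 13.9, 42.6, 13.2 and 11.4 CPM in primary CR1, primary CR2, metastatic CR1 and metastatic CR2. The phenotypes did not overlap, and primary CR2 stood above the other CR tumors. Its log2 fold change was 2.97 (SE 0.51, adjusted p = 0.0126, edgeR), and 2.42 without primary CR2 (adjusted p = 0.0144, edgeR). Of the B and plasma cell markers, Ms4a1, Cd79a and Pax5 were at most 0.283 CPM in any tumor. Igj, the joining chain of antibodies, was lower in CR tumors, at 0.121 to 1.69 CPM against 2.29 to 48.0 CPM in AS tumors (log2 fold change -4.49, SE 1.03, adjusted p = 0.0305, edgeR).

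Ccl8, whose gene lies at chr11:82115185-82116799, was the most abundant CC ligand per kilobase in AS tumors. It had the smallest p of the members lower in CR tumors. It was at 38.3, 49.5, 37.9 and 23.5 CPM in primary AS1, primary AS2, metastatic AS1 and metastatic AS2, and at 4.81, 5.62, 1.69 and 9.39 CPM in primary CR1, primary CR2, metastatic CR1 and metastatic CR2. Every AS tumor was above every CR tumor. The log2 fold change was -2.78 (SE 0.46, adjusted p = 0.0112, edgeR), from 37.3 ± 10.7 CPM (SD, n = 4) to 5.38 ± 3.17 CPM (SD, n = 4). Within primary tumors alone it was -3.08 and within metastatic tumors alone -2.48, with adjusted p of 0.115 and 0.103 in edgeR. Of 13 macrophage markers, 0 passed the test between phenotypes, with a median log2 fold change of -0.35, and their summed level was 604 to 846 CPM in AS and 324 to 705 CPM in CR tumors. Metastatic CR1 had the lowest Ccl8 and also the lowest macrophage marker sum. Their part in the Ccl8 difference was not tested.

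Ccl4, which draws macrophages and T cells, was lower in CR tumors at a much lower level. It was at 0.516, 0.820, 0.347 and 0.795 CPM in primary AS1, primary AS2, metastatic AS1 and metastatic AS2, and at 0.0615, 0.147, 0 and 0.162 CPM in primary CR1, primary CR2, metastatic CR1 and metastatic CR2. The groups did not overlap, but the CR values rest on 5, 3, 0 and 4 counts. The log2 fold change was -2.89 (SE 0.75, adjusted p = 0.0427, edgeR). Leaving out any tumor other than metastatic CR2 took its adjusted p to between 0.0508 and 0.152 in edgeR. Its neighbour Ccl3, a close relative, was at 0.242 to 0.903 CPM in AS and 0.172 to 0.931 CPM in CR tumors, and did not pass the test (log2 fold change -0.48, SE 0.53, adjusted p = 0.601, edgeR).

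Cxcl12, the stromal ligand of Cxcr4 and Cxcr7, differed by the smallest fold. It was at 7.14, 8.42, 4.93 and 6.67 CPM in primary AS1, primary AS2, metastatic AS1 and metastatic AS2, and at 3.86, 4.64, 2.50 and 4.01 CPM in primary CR1, primary CR2, metastatic CR1 and metastatic CR2. The lowest AS tumor lay just above the highest CR tumor. The log2 fold change was -0.86 (SE 0.22, adjusted p = 0.0438, edgeR). Relative log expression (RLE) factors moved the adjusted p to 0.0527 in edgeR, and leaving out any tumor other than primary CR1 or metastatic CR2 moved it to between 0.0765 and 0.149. Fibroblast and smooth muscle markers summed to 70.1 to 109 CPM in AS and 68.0 to 132 CPM in CR tumors, and endothelial markers to 91.996 to 145 and 74.4 to 146 CPM, with 0 of 12 genes of either list past the test. The log2 fold changes of its receptors Cxcr4 and Cxcr7 were -0.72 (SE 0.40) and -0.22 (SE 0.25), with adjusted p of 0.284 and 0.617 in edgeR.

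Ccr3, the eotaxin receptor of eosinophils, was the only receptor past the threshold in edgeR with its filter, and Ccr10 joined it in DESeq2. It had 97, 25, 166 and 48 counts in primary AS1, primary AS2, metastatic AS1 and metastatic AS2, which were 1.56, 0.360, 2.13 and 0.471 CPM. In primary CR1, primary CR2, metastatic CR1 and metastatic CR2 it had 0, 0, 2 and 8 counts, the last being 0.324 CPM. The groups came close, since metastatic CR2 was just below primary AS2. The log2 fold change was -4.12 (SE 1.09, adjusted p = 0.0460, edgeR). Leaving out any tumor other than primary CR1 or metastatic CR2 moved the adjusted p to between 0.0525 and 0.170 in edgeR. The 8 mast cell and eosinophil markers found were at or near 0, with a summed level of 0 to 0.173 CPM in AS and 0.0123 to 0.648 CPM in CR tumors. The eotaxins also showed no call: Ccl11 and Ccl24 had log2 fold changes of -0.50 (SE 0.63) and 0.28 (SE 0.56), with adjusted p of 0.652 and 0.790 in edgeR.

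**Figure D3:**
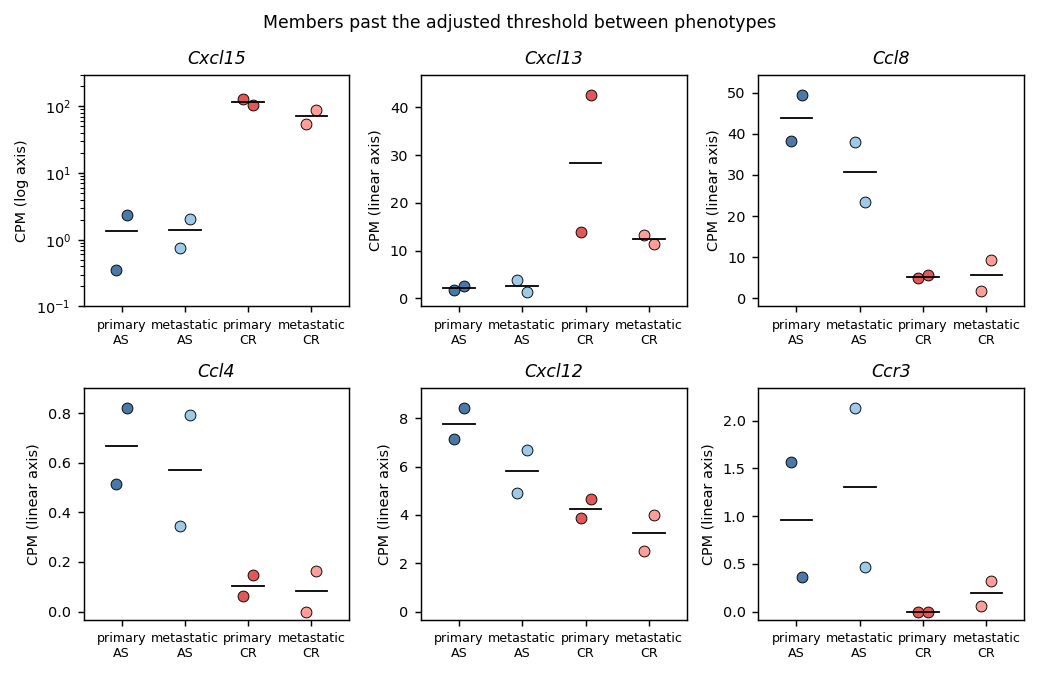
CPM of the 6 members past the adjusted threshold between phenotypes, with a point for each of the 2 tumors in each group and a line at their mean. Cxcl15 is on a log axis and the others on linear axes that include 0. Cxcl15 runs from 0.355 to 2.32 CPM in AS and from 55.1 to 129 CPM in CR tumors, and for every gene shown the AS and CR points do not overlap.

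By the same criterion of groups that do not overlap, 2 members were wholly higher in CR tumors (5%, beside 8.01% of all genes) and 5 were wholly lower (12.5%, beside 9.51%). The 5 include Ccl4 and Ccr3, which entered the test through their AS tumors, so their separation is not independent of the filter. The wholly lower gene that was not called in edgeR with its filter was Ccr10, the receptor of Ccl27 and Ccl28. It was at 1.63, 1.17, 0.937 and 0.942 CPM in primary AS1, primary AS2, metastatic AS1 and metastatic AS2, and at 0.480, 0.440, 0.611 and 0.648 CPM in primary CR1, primary CR2, metastatic CR1 and metastatic CR2. All AS values were above all CR values, but the log2 fold change of -1.08 (SE 0.34) did not pass in edgeR (adjusted p = 0.0752) and passed in DESeq2 (adjusted p = 0.0332). Ccr4, a receptor of T cells, had the next smallest p among higher members, on 0 to 3 counts in AS and 1 to 9 counts in CR tumors, with a log2 fold change of 3.29 (SE 1.29, adjusted p = 0.140, edgeR).

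The other ligand and receptor axes gave no call between phenotypes in edgeR with its filter, but some of their ligands passed in other fits. Ccl2, the main monocyte attractant, was at 1.32, 4.13, 2.79 and 4.10 CPM in primary AS1, primary AS2, metastatic AS1 and metastatic AS2, and at 0.873, 0.489, 0.146 and 1.46 CPM in primary CR1, primary CR2, metastatic CR1 and metastatic CR2. Metastatic CR2 just exceeded primary AS1. The log2 fold change was -2.04 (SE 0.61, adjusted p = 0.0678, edgeR), while that of its receptor Ccr2 was -0.43 (SE 0.34, adjusted p = 0.444). Ccl2 passed in DESeq2 (adjusted p = 0.00767), in edgeR without primary CR1 (adjusted p = 0.0460) and in edgeR with no low-count filter (adjusted p = 1.03e-06). With no filter, the log2 fold change of Ccl2 was -2.12, a similar value, but its SE was 0.38. That fit gave far smaller p-values at similar fold changes, so a pass in it is not read as added support. This limit holds wherever a pass with no filter is named. Ccl5, which draws T cells and macrophages, had a log2 fold change of -0.23 (SE 0.47, adjusted p = 0.794, edgeR). Among the interferon-induced ligands of Cxcr3, Cxcl9 was at 1.04 to 4.53 CPM in AS and 0.537 to 1.98 CPM in CR tumors (log2 fold change -1.59, SE 0.59, adjusted p = 0.120, edgeR), and passed in DESeq2 (adjusted p = 0.0415) and in edgeR with no filter (adjusted p = 0.000257). Cxcl10, Cxcl11 and Cxcr3 itself were at -0.24 (SE 0.95), -0.86 (SE 0.57) and -0.52 (SE 0.82) on the same log2 scale. Their adjusted p was 0.896, 0.362 and 0.728 in edgeR. The reference annotates Cxcl11 as a polymorphic pseudogene.

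In the neutrophil axis beside Cxcl15, the ligands Cxcl1, Cxcl2 and Cxcl5 were at low levels. Their levels and those of Cxcr2 overlapped between phenotypes. Cxcl5 had a log2 fold change of 0.88 (SE 0.68, adjusted p = 0.442, edgeR). In primary tumors alone that of Cxcl5 was 2.41 and in metastatic tumors alone -0.79, with adjusted p of 0.105 and 0.421 in edgeR. Cxcl1 was at 0.661 to 1.41 CPM in AS and 0.977 to 1.71 CPM in CR tumors (log2 fold change 0.42, SE 0.32, adjusted p = 0.435, edgeR). Cxcl2 had a log2 fold change of 0.15 (SE 0.69, adjusted p = 0.915, edgeR) and Cxcr2 one of 0.46 (SE 0.22, adjusted p = 0.227). Neutrophil markers summed to 12.1 to 24.2 CPM in AS and 7.42 to 24.5 CPM in CR tumors. Cxcl16, which binds Cxcr6 on T cells, was at 5.85 to 9.79 CPM in AS and 1.91 to 7.41 CPM in CR tumors (log2 fold change -0.82, SE 0.37, adjusted p = 0.192, edgeR, and 0.0258 with no filter), and Cxcr6 had a log2 fold change of -0.53 (SE 0.45, adjusted p = 0.479).

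Ligands of the same class often lie side by side in the genome, so fold changes were set beside gene order, joining members less than 500 kb apart. On chromosome 11, at 82035571 to 82305690, lie Ccl2, Ccl7, Ccl11, Ccl12, Ccl8 and Ccl1, and all 5 tested genes were below 0, with a median log2 fold change of -1.37, and Ccl8 was the single call in edgeR with its filter. Ccl2 also passed in DESeq2, and Ccl2, Ccl7 and Ccl12 passed in edgeR with no filter, the last pair with adjusted p of 0.000898 and 0.00228. Farther along the same chromosome, at 83525778 to 83664683, Ccl5, Ccl9, Ccl6, Ccl3 and Ccl4 were split, with 3 below 0 and 2 above. On chromosome 5, at 90759360 to 90905938, Cxcl5, Cxcl15, Cxcl1 and Cxcl2 were all above 0, with a median of 0.65 and Cxcl15 as the single call in edgeR. The related genes Ppbp and Pf4 of that row had log2 fold changes of -0.38 and -1.14 and did not pass the test. Cxcl9, Cxcl10 and Cxcl11, also on chromosome 5 at 92321347 to 92365485, were all below 0. On chromosome 9, at 123678439 to 124147699, 5 of the 6 member receptor genes were below 0 and Ccr1 was above. Xcr1, a chemokine receptor of that row outside the naming rule, was also above 0 (log2 fold change 0.40, SE 0.66) and did not pass the test. The counts of members above and below 0 in each row were the same with RLE factors, with nuclear protein-coding counts as the library size, and in DESeq2. Neighbouring genes are not independent of each other.

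**Figure D4:**
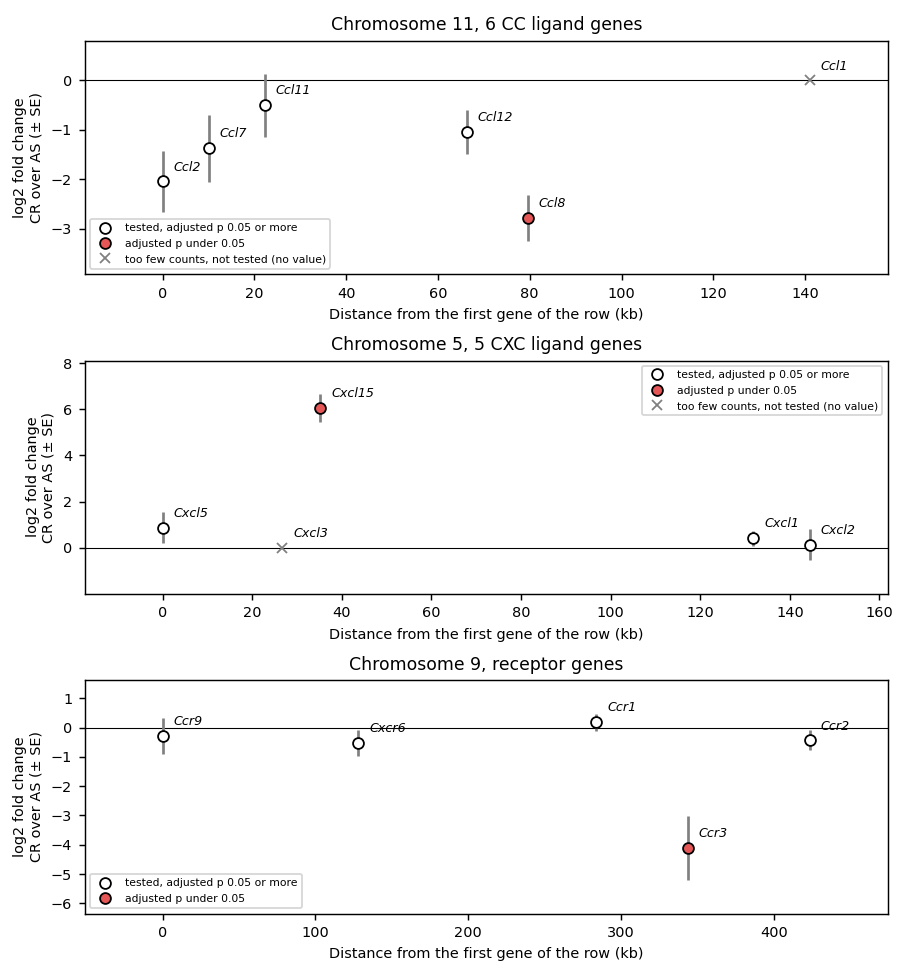
Log2 fold changes of CR over AS with standard errors, against distance in kb from the first gene, for rows of members on chromosomes 11, 5 and 9. Filled points are Ccl8 (-2.78), Cxcl15 (6.06) and Ccr3 (-4.12), which passed the adjusted threshold in edgeR, and crosses mark Ccl1 and Cxcl3, which had too few counts and carry no fold change.

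Summed by class, the CXC ligands reached 51.5 ± 9.20 CPM in AS tumors and 180 ± 76.1 CPM in CR tumors (SD, n = 4 each), with the 4 CR sums between 107 and 283 CPM and the 4 AS sums between 46.0 and 65.2 CPM. Without Cxcl15, the AS sums were 44.2 to 62.9 CPM and the CR sums 56.7, 177, 52.0 and 54.7 CPM in primary CR1, primary CR2, metastatic CR1 and metastatic CR2, so only primary CR2, the tumor of high Cxcl17, lay above the AS range. The CXC ligands had a median log2 fold change of -0.05, with 6 above 0 and 6 below. The CC ligands reached 147 ± 42.3 CPM in AS and 116 ± 49.1 CPM in CR tumors (SD, n = 4 each), and these sums overlapped. Receptor sums were also close, at 34.6 ± 8.64 and 31.2 ± 7.25 CPM for CC receptors and 42.0 ± 8.81 and 39.7 ± 7.41 CPM for CXC receptors (SD, n = 4 each, AS then CR).

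Whether metastases differed from primary tumors in the same way in both phenotypes was tested by an interaction term. No member passed (0 of 40, edgeR, where 0% of 18889 genes did), and 2 members had an unadjusted p under 0.05, one of each sign, where 2.74% of genes did (1.2% positive and 1.54% negative). DESeq2 called 0 members adjusted and gave 3 unadjusted. Cxcl5, a neutrophil attractant, had the smallest p. It was at 0.323, 0.417, 0.655 and 0.736 CPM in primary AS1, primary AS2, metastatic AS1 and metastatic AS2, and at 2.58, 1.32, 0.437 and 0.364 CPM in primary CR1, primary CR2, metastatic CR1 and metastatic CR2. Both metastases were above both primary tumors in AS and below them in CR. The interaction was -3.20 on the log2 scale (SE 0.71, adjusted p = 0.964, edgeR), from 0.91 within AS to -2.26 within CR tumors.

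Ccl28 showed the opposite sign. It was at 4.40, 5.86, 2.10 and 1.19 CPM in primary AS1, primary AS2, metastatic AS1 and metastatic AS2, and at 2.34, 1.56, 2.91 and 1.62 CPM in primary CR1, primary CR2, metastatic CR1 and metastatic CR2. Both AS metastases were below both AS primary tumors, and the CR tumors overlapped. The interaction was 1.85 (SE 0.64, adjusted p = 0.964, edgeR), with -1.64 within AS and 0.23 within CR tumors. Ccr3 had the next smallest p (unadjusted p = 0.0643, adjusted p = 0.964, edgeR), and since both primary CR tumors were at 0 counts its fitted value depends on the prior count and is not given.

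Genes around the chemokines were read from lists. Of 13 tested chemokine genes outside the naming rule, 0 were higher and 1 lower in CR tumors, and the list's median was -0.42. The lower one was an entry of the scavenger receptor Ccrl1 (log2 fold change -2.60, SE 0.69, adjusted p = 0.0471, edgeR). The other entry of Ccrl1 did not pass (log2 fold change -0.50, SE 0.38, adjusted p = 0.423, edgeR). Of 32 signalling genes below the receptors, 1 was higher, the G protein subunit Gng2 (1.47), and 2 were lower, phospholipase Plcb3 (-0.77) and the small GTPase Rac2 (-1.08), with a median of -0.12. Of 28 NF-kappaB inducers and targets, 0 were higher and 4 lower, namely Nfkb2 (-0.93), Il1r1 (-1.07), Tnfrsf1a (-0.95) and Myd88 (-1.01), with a median of -0.50. Of 19 genes of the interferon gamma axis, 0 were higher and 2 lower, the transcription factors Irf1 (-1.03) and Irf8 (-1.52), with a median of -0.67. All genes together had a median of -0.0004, with 4.76% higher and 5.29% lower. Between tumor types 0 genes of these lists passed, in edgeR.

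Marker lists of cell types gave few calls between phenotypes, but 10.1% of all tested genes were called. A list this short can hold 0 calls at that share, so 0 calls do not show equal cell content. No gene passed in edgeR among 8 neutrophil, 14 T and NK cell, 7 dendritic cell, 12 endothelial, 12 fibroblast and smooth muscle or 2 lung markers tested. Their median log2 fold changes were -0.90, -0.84, -0.49, 0.06, -0.12 and 0.05, beside -0.0004 for all genes. Of 10 epithelial and tumor cell markers tested, 0 were higher and 1 was lower, Trp63 (-1.82). At an unadjusted p under 0.05 in edgeR, 2 were higher and 1 lower, and the list's median was -0.35. The 13 markers found summed to 1373 to 2484 CPM in AS and 2462 to 3526 CPM in CR tumors, so the sums overlapped narrowly. Of 4 liver markers, 3 were lower in CR tumors, Fgb (-4.02), Cps1 (-2.51) and Ttr (-1.33), and Fgb made up most of the liver sum of 3771 to 10526 CPM in AS against 132 to 1956 CPM in CR tumors. Of 2 lymph node stroma markers tested, 1 was higher, which was Cxcl13 itself. The mast cell and eosinophil markers had too few counts to be tested.

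Some members share sequence with other genes, and the reads were kept only when they matched 1 place. Of 54 members with a transcript, 38 shared no window of the read length with another annotated gene at up to 2 mismatches, and for 9 over 5% of windows were shared. The shares were 100% for Ccl21a, Ccl21b, Ccl21c and Ccl27b, 72.7% for Ccl27a, 57.7% for Ccl19, 40.1% for Cxcl11, 17.4% for Cxcl16 and 6.41% for Cxcl2, so their levels are uncertain. Exons of Cxcl16, Ccl25, Ccr9, Cxcl10, Cxcr5, Cxcl11 and Ccl27a overlap a gene on the opposite strand, and whether the counting used strand is not given in the sources used here. The 6 members called between phenotypes shared no windows and overlapped no exon of another gene.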

How the data were processed

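RNA was sequenced from 8 tumors. The paper's text counts 3 primary and 4 metastatic tumors and does not name them, and all 4 deposited primary tumors were used here. Per the authors, ribosomal RNA was depleted from total RNA, and stranded libraries were sequenced as paired reads. The paper's methods name Bowtie and mm10, with unique matches of up to 2 mismatches, while the submitters' processing notes name CASAVA 1.8.2, TopHat2 2.0 and GRCm38. The counting tool, annotation release and strand setting are not given in the sources used here. The deposited values are raw counts per gene, and the TMM and DESeq steps of the authors came later. A gene with a copy elsewhere loses reads under unique matching.

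Counts were tested in R 4.3.3 with edgeR 4.0.16 (filterByExpr, TMM, quasi-likelihood test, prior count 0.125), with Benjamini-Hochberg adjustment over all tested genes and a threshold of 0.05. Tumor type was tested alone over 17104 genes. Phenotype was tested with tumor type as a term, and their interaction as well, over 18889 genes. A standard error is the log2 fold change divided by the square root of its F statistic. Positions and exon lengths came from GENCODE M21 (54 members found). The fits were tested on simulated data. Alternatives were DESeq2 1.42.0, RLE factors, no filter, nuclear protein-coding library size, other terms, each phenotype or tumor type alone and each tumor left out. Levels were drawn with matplotlib 3.10.9. A count of 3 equals 0.0326 to 0.144 CPM of the total count, and counting error is a lower limit on error.

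The members, the 12 marker lists and 4 pathway lists were chosen with earlier results of these data known. Full statistics were given for members past the threshold, the 3 smallest p in each direction of tumor type and phenotype, the 3 smallest of the interaction, the 3 highest levels per kilobase in each class, and the members of 10 ligand and receptor axes. Ccr10 and the members of the gene rows are named by those axes or by position. Some items, 1 tested member among them, are not reported here and not drawn, and they stay in the fits and counts.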

Additional observations from a re-analysis of the deposited data

Results flagged for a closer look

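In groups of 4 tumors, a tumor was set apart when its gap to the nearest other tumor, divided by the range of the group, was above Dixon's 95% critical value for 4 samples. This held in 9 of 88 groups formed from 22 named members. Chance alone sets apart about 1 group in 20 where values are normally distributed and groups are independent. Here each tumor enters a tumor type group and a phenotype group of the same gene, so these shares are not compared. All values are CPM.

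Primary CR2 was set apart 4 times. Cxcl17 was at 124 there, while the other primary tumors lay between 25.7 and 36.1 and the other CR tumors between 22.8 and 29.5. Cxcl13 was at 42.6, with the other CR tumors between 11.4 and 13.9. Ccr4 was at 0.293, or 6 counts, with the other primary tumors between 0 and 0.0323.

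Metastatic CR2, the library of lowest total, was set apart 3 times. Cxcl2 was at 0.810 among CR tumors otherwise between 0.0977 and 0.146, and Cxcl10 at 2.87 among CR tumors otherwise between 0 and 0.332. Cxcr7 was at 16.7, below the other metastatic tumors at 27.6 to 29.4. The remaining values were Ccl6 at 90.7 in primary AS2, above the other AS tumors at 44.9 to 48.1, and Ccr1 at 9.90 in primary AS1, below the other primary tumors at 21.4 to 22.8.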

How the results depend on the processing

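Between tumor types, the number of members called stayed at 0 in every alternative run, including DESeq2 and each tumor left out. Of the 6 named fold changes, 1 changed direction: Ccl28, at 0.23 in castrate resistant tumors alone. Cxcl2 had too few counts in the fits without primary AS2 and without metastatic AS2, so 6 of its 8 fits with a tumor left out gave a value. Between phenotypes, the 6 calls became 12 with no low-count filter (adding Ccl2, Ccl7, Ccl12, Cxcl9, Cxcl16 and Cxcl17), 9 in DESeq2 (adding Ccl2, Cxcl9 and Ccr10), 5 with RLE factors or the nuclear protein-coding library size, and 4 with tumor type not in the fit. They became 1 in primary tumors alone and 1 in metastatic tumors alone, in both cases Cxcl15, with 2 tumors against 2. Without both castrate resistant tumors of lowest total, an alternative added after the data were seen, they became 3. Leaving out each tumor gave 3 to 6: it gave 6 without primary CR1 (Ccl2 gained, Ccl4 lost), the same 6 genes without metastatic CR2, and 3 (Cxcl15, Cxcl13 and Ccl8) without any of the others. Cxcl15, Cxcl13 and Ccl8 passed in 8 of 8 such fits, Cxcl12 and Ccr3 in 2 and Ccl4 in 1. The interaction gave 0 members except 1 with no low-count filter, Cxcl5, at -3.28 (adjusted p = 0.0439, edgeR), and its adjusted p was 0.0439 to 0.99997 over all 12 alternatives. Some of these fits held fewer samples. The fit with no filter called more members although it tested 31875 genes in place of 18889. In it, Ccl8 had an adjusted p of 9.71e-27 at a log2 fold change of -2.87 (edgeR), beside 0.0112 at -2.78 with the filter. The cause of these changes was not tested. A minimum of 1 CPM per kilobase left 16 members as expressed in place of 40, and 0.1 CPM per kilobase left 34. Over all genes, calls between phenotypes were 1899, and 3545 in DESeq2, 3098 with no filter, 56 in primary and 68 in metastatic tumors alone, 701 without the 2 tumors of lowest total and 399 to 3784 with a tumor left out. The interaction had 0 calls over all genes, and 2 in DESeq2, 217 with no filter and 82 without primary CR2. No paired analysis was possible because the primary tumor that each metastasis matches is not given. Counts under 10, as for Ccl4 and Ccr3 in castrate resistant tumors, limit what can be read from low members.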
